A study of Mus musculus with 18 samples.

Results

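Endothelium-enriched cells (EC) of the embryonic mouse aorta-gonad-mesonephros region (AGM) were compared before and after explant culture. The comparison uses 4 of the 18 RNA-seq libraries of the series: the EC libraries from fresh AGM and those from AGM explants grown without cyclopamine, chosen by their titles and matched by BRE-GFP fraction. BRE-GFP is a transgenic reporter in which BMP-responsive elements drive green fluorescent protein, so the EC gate (CD31 positive, c-Kit negative) was split into a reporter-negative and a reporter-positive library for each condition. All embryos were of the C57BL6 BRE-GFP reporter strain at embryonic day 11. The explant medium contained BMP and Hedgehog, and the whole AGM was cultured and then sorted, so that explant EC differ from fresh EC in culture itself as well as in added ligands. How many embryos were pooled, and how long the explants were kept, is not given in the sources used here. The other libraries hold EC from explants with cyclopamine, an inhibitor of the Hedgehog receptor component Smoothened, and the same 3 cultures of a hematopoietic progenitor-enriched population (HPSC) and a mesenchymal population (MC, CD31 negative and c-Kit negative).

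The AGM surrounds the dorsal aorta, whose ventral endothelium gives rise to the first hematopoietic stem cells through an endothelial-to-hematopoietic transition. BMP signals, made largely by the tissue under the aorta, act through SMAD proteins, and Hedgehog signals act through Smoothened and the GLI factors; both pathways are known to bear on this transition. An explant keeps the aorta and the tissue around it together in a dish, without blood flow.

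Library totals for the 4 libraries ran from 5507440 to 16043805 counts, the smallest being the explant negative library. The sort markers followed the gate in part. Pecam1, which encodes CD31, stood at 93.7 CPM (counts scaled to library size and TMM factor) in fresh negative, 1683 in fresh positive, 288 in explant negative and 1459 in explant positive, against at most 11.5 CPM in the 6 MC libraries. Endothelial marker levels were therefore low in both reporter-negative libraries, and leukocyte transcripts were high there: Csf1r, the receptor for the macrophage growth factor CSF1, stood at 1190 CPM in fresh negative and 619 in explant negative, against 296 and 122 in the positive libraries. The 2 positive libraries carried the endothelial markers their label names, while the negative libraries carried them at lower levels beside macrophage genes, and counts for the 2 fractions apart are added for some of the lists. Kit transcripts were present in every EC library (42.6 to 220 CPM) although the gate excluded c-Kit on the cell surface. Reads at no annotated feature made up 39.2% and 36.7% of uniquely placed reads in the fresh libraries and 42.9% and 49.4% in the explant libraries. The libraries are bulk samples, so fewer cells of a type and less RNA per cell cannot be told apart, and since no repeat libraries exist and nothing says that the fractions came from separate embryos, p-values measure only the spread between these libraries.

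Of 16231 genes tested, 1 passed in explant against fresh EC (0.00616% of genes, edgeR quasi-likelihood test on all 18 libraries, Benjamini-Hochberg adjusted p under 0.05). That gene was Lrrc17, which encodes a secreted leucine-rich repeat protein, at chr5:21543559-21575904 on the plus strand of GRCm38. Lrrc17 stood at 17.3 CPM in fresh negative and 17.9 in fresh positive, and at 282 and 249 CPM in explant negative and explant positive. Both explant libraries were far above both fresh ones, and the reporter fractions were close to each other within each condition. The log2 fold change was 3.91 (SE 0.50, adjusted p = 0.0329). The call was lost in 8 of the 18 fits that left out 1 library: those without any of the 6 EC libraries and those without the fresh negative or the fresh positive MC library, with the highest adjusted p, 0.829, without fresh negative EC. The log2 fold change for Lrrc17 ran from 3.77 to 4.01 over all settings and omissions tried. In EC from explants with cyclopamine, which share the fresh reference, Lrrc17 stood at 357 and 354 CPM. By DESeq2 the adjusted p for Lrrc17 was 8.48e-18 and by limma-voom 0.145. With the share of reads at no feature as a covariate, 0 genes passed and the median log2 fold change of all genes moved from -0.01 to 0.48.

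The common biological coefficient of variation was 0.884, with 6 residual degrees of freedom. At an unadjusted p under 0.05, 304 genes were higher in explant EC (1.87%) and 70 lower (0.431%). Gene groups are therefore described by how many members were at least 2-fold apart in the same direction in both reporter fractions, on log2 ratios of CPM + 2, which understate the change of low genes. By that measure 712 genes were higher (4.39% of tested genes) and 323 lower (1.99%), while 714 genes (4.4%) were at least 2-fold apart in opposite directions in the 2 fractions. In the negative pair alone 17.7% of tested genes were at least 2-fold higher and 18.9% lower, and in the positive pair alone 14.5% were higher and 9.37% lower. No list in this description was tested as a list, and all lists were chosen with earlier results of these data known. The shares of 4.39% and 1.99% are the background for the counts of list members below.

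**Figure D1:**
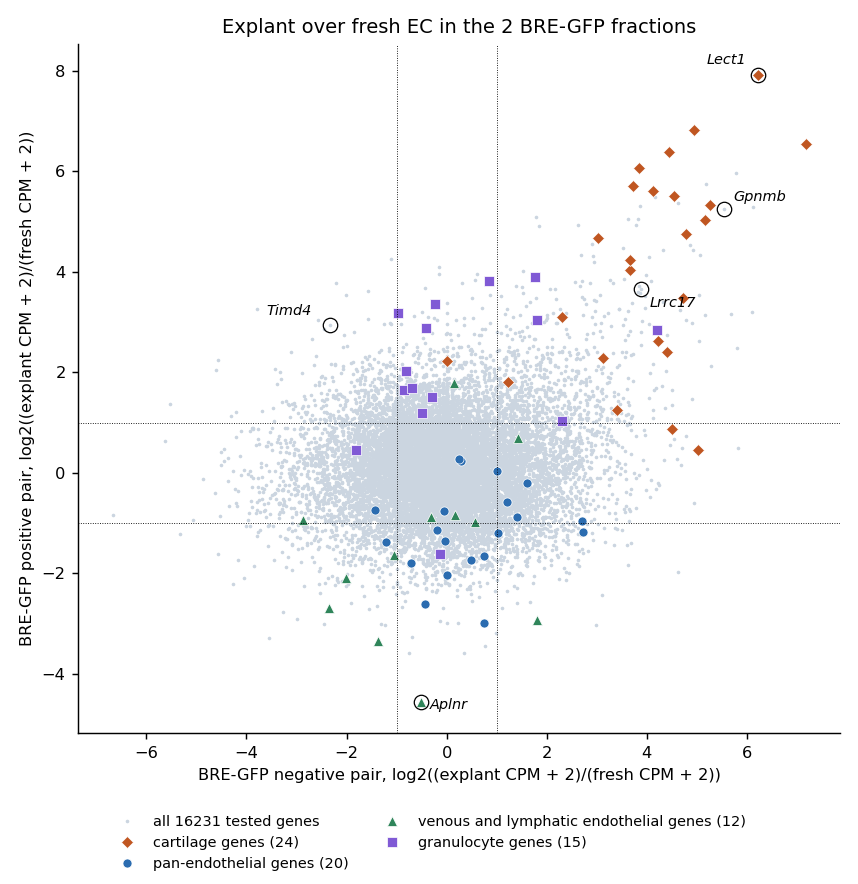
Each point is 1 gene, with the log2 ratio of explant to fresh CPM (each + 2) in the BRE-GFP negative pair on the x axis and in the BRE-GFP positive pair on the y axis; dotted lines mark 2-fold. The cartilage genes (diamonds) sit in the upper right, with medians of 4.30 and 4.46, while the pan-endothelial genes (circles) spread to both sides of 0 in the negative pair, where 6 of 20 are at least 2-fold higher and 2 lower, and have a median of -1.16 in the positive pair.

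Genes of the cartilage extracellular matrix had the highest median fold change of the 41 lists examined. This list was chosen after its values were seen, so the rank cannot count as evidence. Of 24 cartilage genes, 21 were at least 2-fold higher in both fractions and 0 lower. Their median log2 fold change was 5.43, against -0.01 over all tested genes. The edgeR test called 0 of them, and 20 were higher at an unadjusted p under 0.05, against 1.87% of all tested genes. DESeq2 called 15, of the 119 genes it called in all. Lect1 (Cnmd, chondromodulin, a cartilage glycoprotein that inhibits vessel growth; chr14:79637690-79662170, minus strand) stood at 16.6 and 7.61 CPM in the fresh libraries and at 1377 and 2314 CPM in the explant libraries. Its log2 fold change was 7.09 (SE 1.17, adjusted p = 0.117). Col2a1, the main fibrillar collagen of cartilage, stood at 58.6 and 12.4 CPM in fresh EC and 1311 and 1206 CPM in explant EC (log2 fold change 5.10, SE 1.37, adjusted p = 0.977).

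The list spans the parts of a cartilage matrix. Acan encodes aggrecan, the large proteoglycan that holds water in cartilage, and stood at 2.52 and 0 CPM in fresh EC and 650 and 186 CPM in explant EC (adjusted p = 0.284). Matn1, a matrilin that links collagen fibrils, stood at 9.85 and 0 CPM in the fresh libraries and 362 and 226 CPM in the explant libraries. In each of these genes both explant libraries lay above both fresh ones, as in 16% of all tested genes. Col11a1, whose product nucleates collagen II fibrils, stood at 41.0 and 9.43 CPM before and 746 and 557 CPM after culture. Col9a1, which decorates those fibrils, stood at 12.1 and 8.8 CPM before and 177 and 175 CPM after. The transcription factor Sox9, which directs chondrocyte differentiation, stood at 78.5 and 25.7 CPM in fresh EC and 395 and 235 CPM in explant EC, a log2 difference of 2.65 (SE 1.05). Its partners Sox5 and Sox6 were also at least 2-fold higher in both fractions.

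A few cartilage genes had no count in either fresh library, so only a lower bound can be given, against a floor of 3 counts over the group. Col11a2, the partner chain of Col11a1, stood at 50.8 and 20.4 CPM in explant EC, at least 297-fold higher than in fresh EC. 3110079O15Rik (Snorc, a chondrocyte membrane proteoglycan) stood at 44.6 and 89.4 CPM, at least 559-fold higher. The bounds cover counting error only. Matn4 stood at 43.4 CPM in explant negative and 1.68 in explant positive, so its level rested on 1 library. Hapln1, which ties aggrecan to hyaluronan, was already at 587 CPM in fresh positive EC and reached 1018 and 799 CPM in the explant libraries, so it fell short of 2-fold in that pair. Ihh, the ligand of growth plate cartilage, was detected in explant positive only, at 7.33 CPM.

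The cartilage genes were summed in each library to compare populations. Their sum stood at 307 and 706 CPM in fresh EC and 7389 and 7086 CPM in explant EC, so both explant libraries lay far above both fresh ones. Most of the fresh positive sum came from Hapln1, whose level there is given above. In MC the sum was 945 and 523 CPM fresh and 4337 and 7085 CPM in explants, close to the EC levels. In HPSC it was 237 and 393 CPM fresh and 133 and 192 CPM in explants. The median log2 fold change of the list was 4.15 in MC and 0.81 in HPSC. In HPSC 14 of the 24 genes had a log2 fold change above 0 although the sum was lower. A sum follows its highest members, and a median does not. In EC from explants with cyclopamine, which share the fresh EC libraries as their reference, the sum was 2068 and 14710 CPM. No test of the difference between populations passed for any gene, as given below, and the part of MC-type cells in the EC gate was not tested. The summed mesenchymal genes stood at 1168 and 1918 CPM in fresh EC and 4590 and 4859 CPM in explant EC. The summed pan-endothelial genes stood at 1486 CPM or more in every fresh and explant EC library against at most 355 CPM in the MC libraries. In fresh HPSC that sum was 1077 and 9646 CPM, and Fli1 alone gave 507 CPM of the sum in fresh negative EC. These sums do not measure how many MC-type cells the EC gate held.

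**Figure D2:**
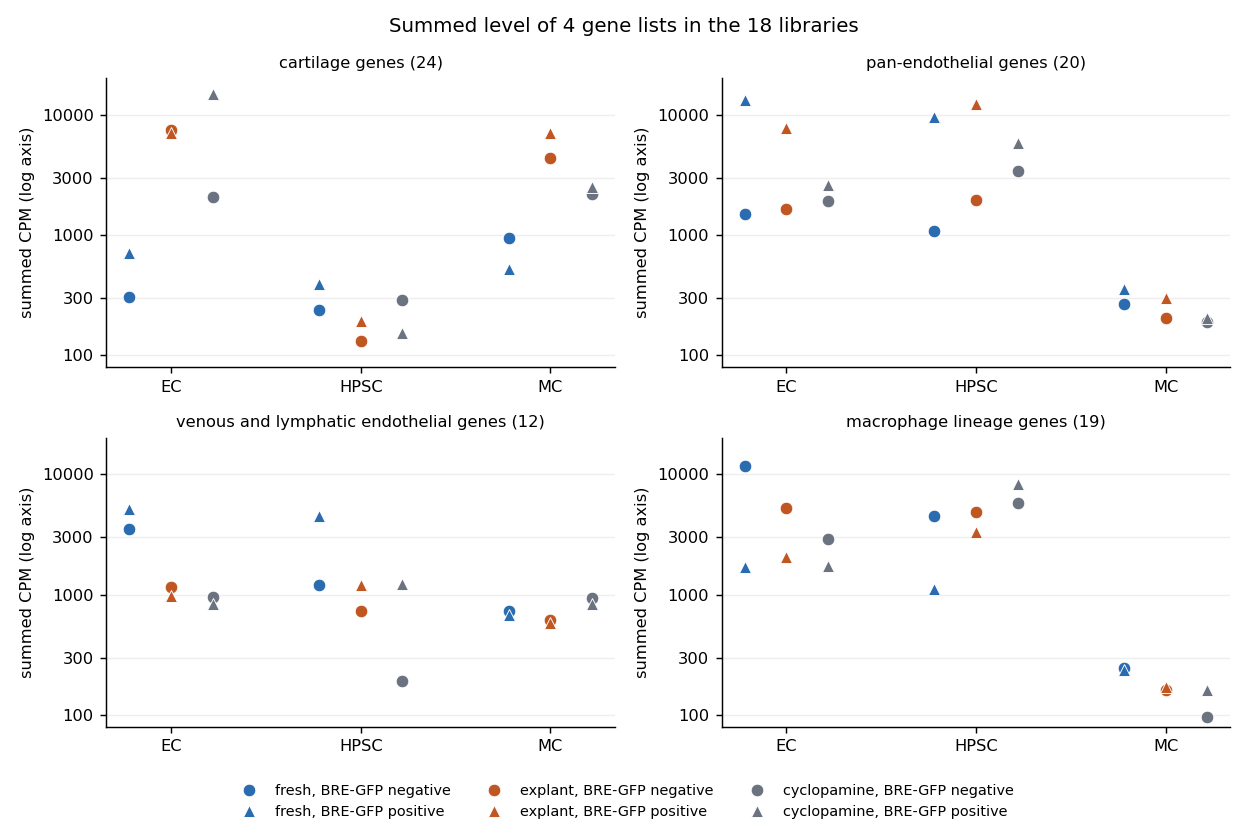
Summed CPM of 4 gene lists (log axis) in each of the 18 libraries, by population; color marks the culture and shape the BRE-GFP fraction. In EC the cartilage sum lay at 307 and 706 CPM fresh and at 7389 and 7086 CPM in explants, near the MC explant libraries, while the HPSC libraries reached at most 393 CPM.

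Promoters of 3 genes whose levels differed in both fractions are shown, as stored by RefSeq for GRCm38.p6, 250 bases before to 50 after the gene start. They were searched on both strands for a Sox-type motif (ACAAAG), an AP-1 site (TGANTCA) and an M-box (TCATGTG), where the end of an AP-1 site can overlap the start of an M-box. Matches are in capitals; these letters occur in 18.7%, 7.81% and 3.77% of 32851 promoters. Lrrc17 (chr5:21543277-21543576, plus strand) and Lect1 (chr14:79662134-79662433, minus strand) hold none of the 3, and Gpnmb (chr6:49036268-49036567, plus strand), described below, holds a Sox-type motif and an AP-1 site.
Lrrc17: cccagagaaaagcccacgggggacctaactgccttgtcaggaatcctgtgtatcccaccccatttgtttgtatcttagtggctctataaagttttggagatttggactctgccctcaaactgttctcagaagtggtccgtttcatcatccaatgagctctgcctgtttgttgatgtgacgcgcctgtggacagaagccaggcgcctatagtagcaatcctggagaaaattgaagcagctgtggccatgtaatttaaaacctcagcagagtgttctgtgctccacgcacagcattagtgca
Lect1: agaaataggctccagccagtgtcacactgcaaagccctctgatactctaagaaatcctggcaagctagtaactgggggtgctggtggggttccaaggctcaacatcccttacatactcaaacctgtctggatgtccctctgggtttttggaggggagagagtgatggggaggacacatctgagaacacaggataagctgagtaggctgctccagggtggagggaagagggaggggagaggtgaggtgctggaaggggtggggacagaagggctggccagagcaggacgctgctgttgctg
Gpnmb: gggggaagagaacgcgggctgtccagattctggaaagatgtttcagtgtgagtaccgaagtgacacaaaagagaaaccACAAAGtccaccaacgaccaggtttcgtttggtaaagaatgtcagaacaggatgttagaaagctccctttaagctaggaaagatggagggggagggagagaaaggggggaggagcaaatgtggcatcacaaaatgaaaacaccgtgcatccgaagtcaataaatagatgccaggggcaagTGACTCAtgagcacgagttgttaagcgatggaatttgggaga
Among 28 promoters of the cartilage genes, 7 held the Sox-type motif (25%), 0 the AP-1 site and 1 the M-box. Among 21 promoters of the macrophage activation genes described below, 7, 5 and 2 held them. A match is a description of the letters only.

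The small leucine-rich proteoglycans, a family that binds collagen fibrils and growth factors, share 2 genes, Chad and Epyc, with the cartilage list. This list too was chosen after its values were seen. Of 13 members tested, 8 were at least 2-fold higher in both fractions and 0 lower, with a median log2 fold change of 3.93. Aspn (asporin) stood at 0.55 and 1.45 CPM in fresh EC and 175 and 132 CPM in explant EC. Its log2 fold change was 7.19 (SE 1.30, adjusted p = 0.216). Ogn (osteoglycin) stood at 5.91 and 3.02 CPM in fresh EC and 285 and 268 CPM in explant EC, with a log2 fold change of 5.99 (SE 1.16, adjusted p = 0.216). Dcn (decorin), already at 87.2 and 202 CPM fresh, stood at 749 and 1438 CPM in explant EC. Prelp, Fmod, Lum, Chad and Epyc were also at least 2-fold higher in both fractions. Bgn was so only in the negative pair, Kera and Omd only in 1 pair each, Ecm2 was not, and Podn was at 0 in all 4 libraries.

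Mesenchymal and fibroblast markers were examined next. Of 18 mesenchymal and fibroblast genes, 6 were at least 2-fold higher in both fractions and 0 lower (4.39% and 1.99% over all genes). Their median log2 fold change was 1.39. Pdgfrb, the mesenchymal receptor for PDGF-B, stood at 35.8 and 40.9 CPM in fresh EC and 390 and 94.5 CPM in explant EC. Pdgfra stood at 68.4 and 100 CPM fresh and 414 and 106 CPM in explants, so the positive pair hardly differed. Their summed level in fresh MC was 3160 and 8694 CPM. Of 12 smooth muscle and pericyte genes, 4 were higher and 0 lower by the same measure, beside the same shares over all genes. These were Acta2 (81.0 and 113 CPM fresh, 245 and 406 CPM in explants), Cspg4, Kcnj8 and Mcam. The contractile genes Myh11 and Cnn1 stayed between 2.85 and 10.5 CPM in all 4 libraries.

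Of 17 collagen, basement membrane and matrix genes, 4 were higher in both fractions and 0 lower, and 3 (Fn1, Col5a2 and Hspg2) were at least 2-fold apart in opposite directions. In the negative pair 10 were higher and 0 lower (17.7% and 18.9% over all genes), with a median log2 ratio of 1.14. In the positive pair 4 were higher and 4 lower (14.5% and 9.37% over all genes), with a median of -0.51. Tnc (tenascin C, a matrix protein of remodeling tissue) stood at 21.1 and 39.5 CPM in fresh EC and 338 and 289 CPM in explant EC, with a log2 fold change of 3.47 (SE 0.65, adjusted p = 0.216). Col6a1, a chain of the microfibrillar collagen VI, stood at 12.7 and 3.02 CPM fresh and 357 and 206 CPM in explants (adjusted p = 0.216). The chains of basement membrane collagen IV, Col4a1 and Col4a2, had log2 fold changes of 0.17 (SE 0.83) and 0.43 (SE 0.86). Of 19 matrix proteases and inhibitors, 8 were higher and 0 lower, with a median of 1.96, against 1.45 in HPSC and 1.85 in MC. Mmp9, a gelatinase, stood at 5.25 and 1.26 CPM in fresh EC and 131 and 21.5 CPM in explant EC. Timp1, an inhibitor of such proteases, stood at 6.35 and 18.1 CPM fresh and 41.4 and 94.8 CPM in explants. Itm2a, a membrane protein of developing cartilage and lymphocytes, stood at 413 and 432 CPM in fresh EC and 1872 and 3444 CPM in explant EC, with a log2 fold change of 2.57 (SE 0.42, edgeR adjusted p = 0.117). Over the alternatives its adjusted p ran from 7.58e-05 with DESeq2 to 1 without the fresh BRE-GFP positive or the explant BRE-GFP negative EC library, and it passed in none of the 18 fits that left out 1 library. Among other genes of lowest p, Mgp, an inhibitor of calcification, stood at 6.79 and 5.66 CPM fresh and 125 and 304 CPM in explants, and Enpp2 (autotaxin, which makes lysophosphatidic acid) at 25.0 and 17.4 CPM fresh and 227 and 152 CPM in explants.

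**Figure D3:**
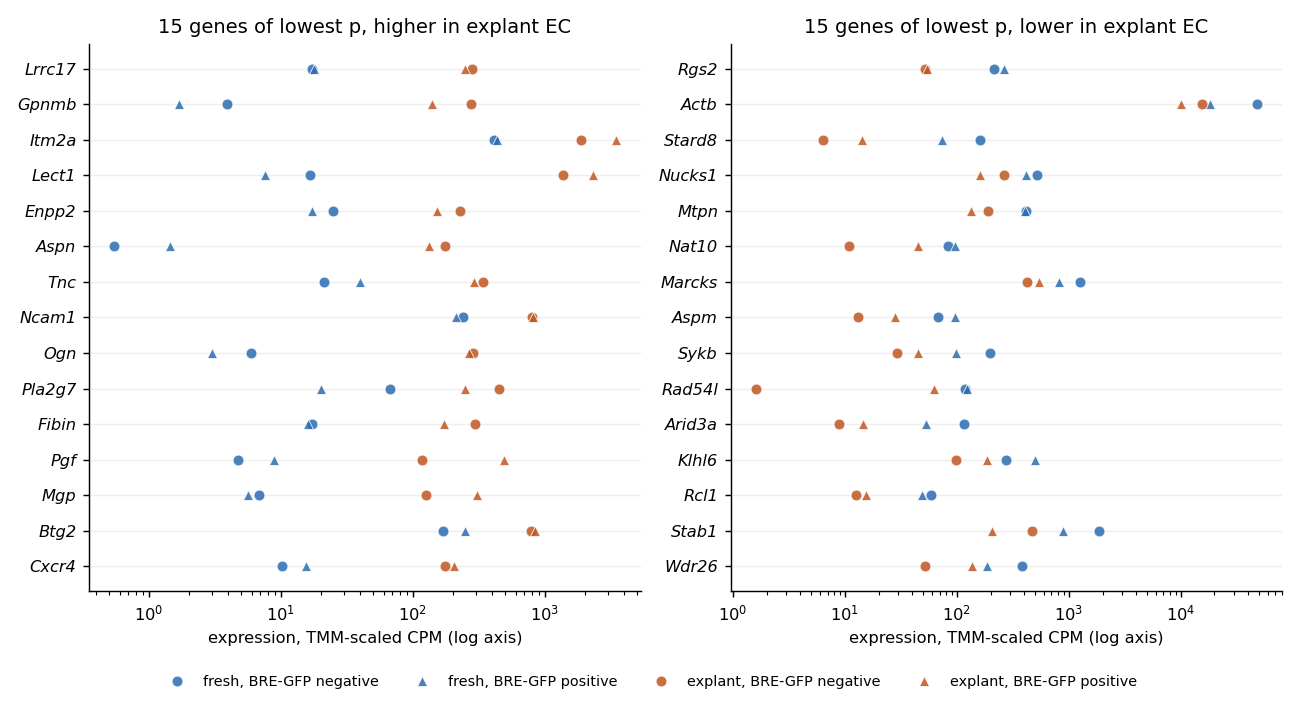
TMM-scaled CPM (log axis) of the 15 genes of lowest p in each direction in the 4 EC libraries; blue marks fresh and orange explant, circles the BRE-GFP negative and triangles the positive library. These genes were taken from among those whose groups do not overlap, and of the 30 only Lrrc17 passed the adjusted threshold.

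The endothelial genes themselves differed by fraction. Of 20 pan-endothelial genes, 0 were higher and 1 (Plvap, a diaphragm protein of fenestrated endothelium) was lower by at least 2-fold in both fractions, and the median log2 fold change was -0.46. The median log2 ratio was 0.39 in the negative pair and -1.16 in the positive pair, where 11 of the 20 genes were at least 2-fold lower and 0 higher, against 9.37% of all tested genes lower in that pair. In the negative pair 6 were higher and 2 lower (17.7% and 18.9% over all genes). Tek, the receptor for angiopoietins, stood at 32.3 and 837 CPM in fresh EC and 55.5 and 103 CPM in explant EC. Kdr, the main VEGF receptor, stood at 70.6 and 1088 CPM fresh and 100 and 325 CPM in explants. Fresh positive was thus the highest library for both genes, and fresh negative the lowest. Cdh5, the adherens junction cadherin of endothelium, stood at 43.3 and 730 CPM fresh and 103 and 485 CPM in explants, and Esam at 85.1 and 950 CPM fresh and 172 and 975 CPM in explants. Vwf, stored in endothelial granules, was lower in both explant libraries (128 and 761 CPM fresh, 94.7 and 123 CPM in explants). The summed level of the list was 1486 and 13320 CPM in fresh EC and 1658 and 7685 CPM in explant EC, and 205 to 355 CPM in the fresh and explant MC libraries.

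**Figure D4:**
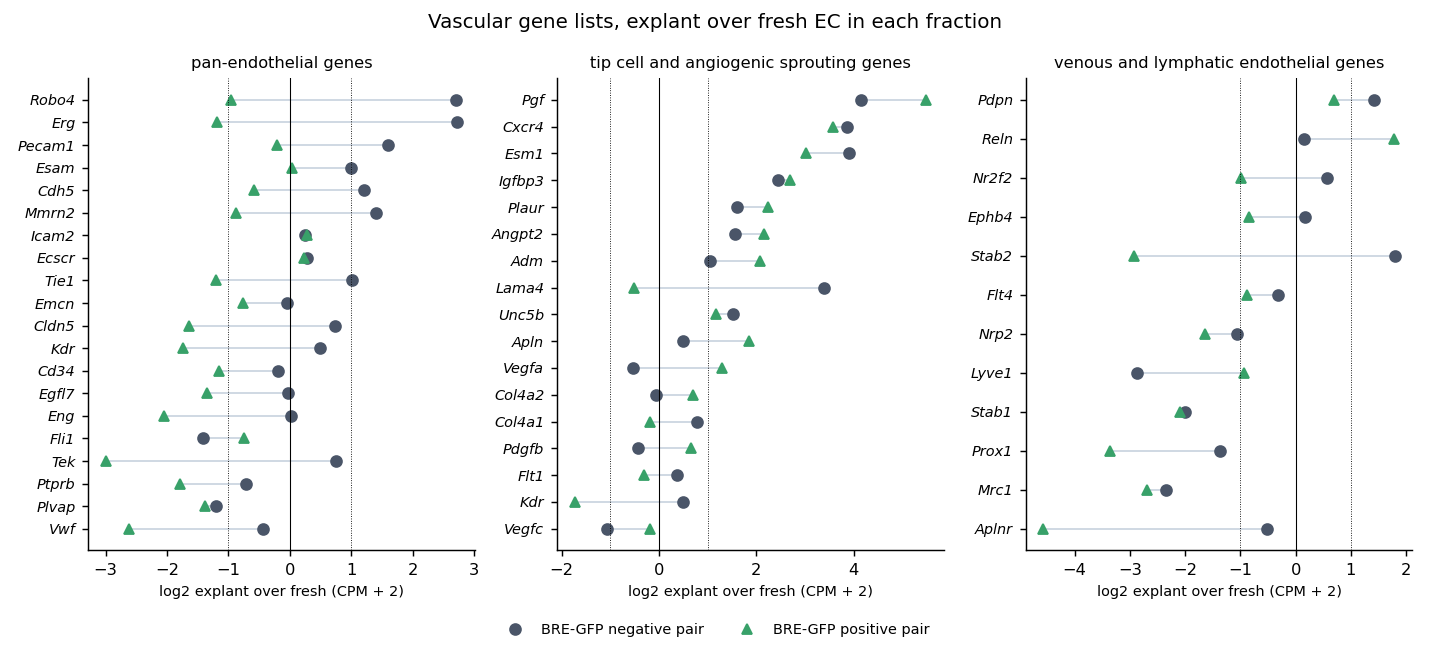
Log2 ratio of explant to fresh CPM (each + 2) for the members of 3 vascular lists, with circles for the BRE-GFP negative pair and triangles for the positive pair; dotted lines mark 2-fold. Most pan-endothelial genes have the triangle to the left of the circle, 8 of 17 tip cell genes lie beyond 2-fold to the right in both pairs, and 4 of 12 venous and lymphatic genes lie beyond 2-fold to the left in both.

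Venous and lymphatic genes were the list with the highest share lower, among lists chosen with earlier results of these data known. Of 12 members, 4 (33.3%) were at least 2-fold lower in both fractions and 0 higher, against 1.99% of all genes, with a median log2 fold change of -1.07. Stab1, a scavenger receptor of sinusoidal and lymphatic endothelium that macrophages also carry, stood at 1878 and 880 CPM in fresh EC and 465 and 206 CPM in explant EC (log2 fold change -2.05, SE 0.78, adjusted p = 1). Prox1, which directs lymphatic fate, stood at 3.17 and 32.9 CPM fresh and 0 and 1.41 CPM in explants. Nrp2, a VEGF-C coreceptor, and Mrc1, also a macrophage gene, were the other two. Aplnr, the apelin receptor of venous and angiogenic endothelium, stood at 90.1 and 2765 CPM in fresh EC and 62.2 and 115 CPM in explant EC, so its difference lay in the positive pair. The summed level of the list was 3502 and 5161 CPM fresh and 1161 and 978 CPM in explants. Most of the fresh negative sum came from Stab1 (1878 CPM) and Mrc1 (1134 CPM), which macrophages also carry. Aplnr was the largest member in fresh positive, so the sum does not show a change across the list. Nr2f2, the factor that specifies venous identity, had a log2 fold change of -0.29 (SE 0.47).

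Arterial endothelium carries genes that blood flow and Notch maintain. Of 16 arterial and flow-responsive genes, 2 were higher in both fractions, Cxcr4 and Unc5b, and 0 lower (4.39% and 1.99% over all genes). Gja5, a connexin of arteries, stood at 47.1 and 631 CPM in fresh EC and 41.4 and 404 CPM in explant EC. Klf2, which blood flow induces, stood at 12.4 and 19.3 CPM fresh and 7.82 and 23.9 CPM in explants. In both genes the groups overlapped. Nos3 had a log2 fold change of 0.25 (SE 1.31).

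Angiogenic tip cells are the leading cells of a vessel sprout. Of 17 genes that mark them, 8 were at least 2-fold higher in both fractions (47.1%, against 4.39% of all genes) and 0 lower. The edgeR test called 0 of them, and the median log2 fold change was 1.31. This list was chosen with earlier results of these data known. In HPSC the median of the list was 1.64 and in MC 0.89, against 0.275 and 0.39 over all tested genes. Pgf, placental growth factor, a ligand of VEGF receptor FLT1, stood at 4.71 and 8.93 CPM in fresh EC and 117 and 488 CPM in explant EC, with a log2 fold change of 5.13 (SE 1.01, adjusted p = 0.216). Esm1, a secreted proteoglycan marking tip cells, stood at 2.85 and 53.5 CPM fresh and 70.7 and 447 CPM in explants. Angpt2, which destabilizes vessels, stood at 8.32 and 62.5 CPM fresh and 28.6 and 284 CPM in explants. For these last genes the positive library exceeded the negative one in both conditions. Cxcr4, the receptor of CXCL12 and a gene of tip cells as well as blood progenitors, stood at 10.2 and 15.5 CPM in fresh EC and 175 and 207 CPM in explant EC, with a log2 fold change of 3.88 (SE 0.78, adjusted p = 0.216). Igfbp3, Plaur, Adm and Unc5b were the others. The VEGF receptor Flt1 and the ligand Vegfa had log2 fold changes of -0.09 (SE 1.27) and 0.38 (SE 1.40). With limma-voom 0 and with DESeq2 2 of these genes passed, Pgf and Cxcr4. Over all genes 5 passed with limma-voom and 119 with DESeq2.

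The culture contained BMP and Hedgehog, and the targets of both pathways were examined in the 4 libraries. Of 16 BMP target genes, 2 were higher in both fractions and 0 lower (4.39% and 1.99% over all genes), with a median log2 fold change of 0.22. Bmper, a secreted BMP modulator of endothelium and cartilage, stood at 4.82 and 4.91 CPM in fresh EC and 222 and 78.8 CPM in explant EC (adjusted p = 0.566), and Id4 stood at 2.52 and 2.96 CPM fresh and 24.9 and 12.1 CPM in explants. Of the immediate SMAD targets, Id1 stood at 19.5 and 24.7 CPM fresh and 39.5 and 52.9 CPM in explants, Id2 at 404 and 332 CPM fresh and 525 and 479 CPM in explants. Explant libraries were higher than fresh ones for both genes, with no overlap, as for 16% of all tested genes. Id3 overlapped (151 and 452 CPM fresh, 341 and 318 CPM in explants), and the inhibitory Smad6 and Smad7 had log2 fold changes of -0.48 (SE 1.83) and -0.36 (SE 1.32). Of 18 BMP ligands, receptors and SMADs, 0 were at least 2-fold higher or lower in both fractions.

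Of 11 Hedgehog target genes, 2 were higher in both fractions and 0 lower (4.39% and 1.99% over all genes), with a median of 0.83. Gli1, a target and effector of the pathway, stood at 3.06 and 0.44 CPM in fresh EC and 32.9 and 6.59 CPM in explant EC (log2 fold change 3.54, SE 1.71, adjusted p = 1). Hhip, a ligand-binding antagonist and target, stood at 6.24 and 6.23 CPM fresh and 79.1 and 16.9 CPM in explants. The explant negative library was the highest for both genes. Ptch1, the receptor and a direct target, stood at 8.87 and 17.2 CPM fresh and 62.9 and 11.6 CPM in explants, so the fractions differed in direction. Of 13 pathway genes, Gas1, a coreceptor, and Gli2, the main activating factor, were higher in both fractions and 0 were lower. Of the ligands, Shh was at or below 0.47 CPM in all 4 libraries and Dhh lay between 1.64 and 4.21 CPM. Ihh was detected in explant positive only, at 7.33 CPM.

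For TGF-beta response genes the fractions shared 3 of 18 higher and 1 lower (4.39% and 1.99% over all genes). Tgfb3, a ligand, stood at 11.8 and 26.5 CPM in fresh EC and 98.8 and 99.5 CPM in explant EC. Ctgf and Cyr61, matricellular targets also of YAP, were the other two. Tgfbr1, the type I receptor, stood at 365 and 220 CPM fresh and 96.7 and 76.7 CPM in explants. In the Notch list 1 of 13 genes was higher in both fractions, against 4.39% of all genes. It was Heyl, at 15.3 and 8.8 CPM fresh and 133 and 98.6 CPM in explants (adjusted p = 0.826). Hes1, a general Notch target, stood at 16.5 and 24.8 CPM fresh and 33.2 and 94.2 CPM in explants. Notch1 and Dll4 had log2 fold changes of 0.10 (SE 0.61) and 1.22 (SE 1.15).

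**Figure D5:**
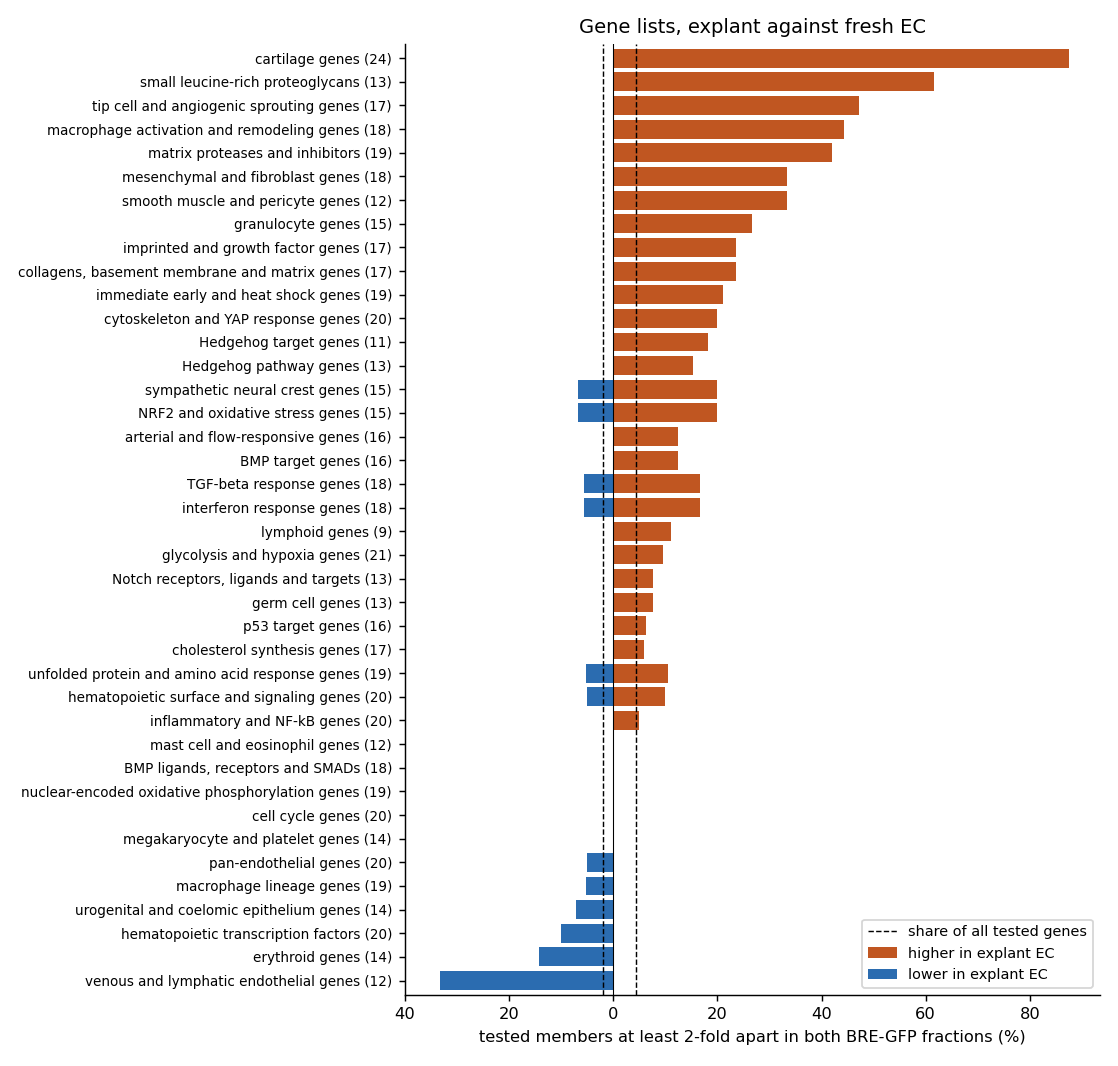
Share of the tested members of each list (number in brackets) at least 2-fold higher (right, orange) or lower (left, blue) in both BRE-GFP fractions, with dashed lines at the share of all tested genes, 4.39% higher and 1.99% lower. The cartilage list reaches 87.5% higher and the venous and lymphatic list 33.3% lower. The cartilage and small leucine-rich proteoglycan lists were chosen after their values were seen, and the other lists with earlier results of these data known. The lists hold 9 to 24 genes, so 1 gene moves a bar by several percent.

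Hematopoietic genes were examined in the same libraries. Of 20 hematopoietic transcription factors, 0 were higher and 2, Hhex and Lyl1, lower in both fractions (1 with RLE scaling), with a median log2 fold change of -0.74. In the negative pair 12 of them were at least 2-fold lower and 2 higher (18.9% and 17.7% over all genes). In the positive pair 2 were lower and 1 higher (9.37% and 14.5% over all genes). Runx1, the factor required for the endothelial-to-hematopoietic transition, stood at 96.3 and 11.9 CPM in fresh EC and 29.9 and 33.2 CPM in explant EC, lower in the negative pair and higher in the positive pair. Gata2, another factor of that transition, stood at 24.2 and 35.2 CPM fresh and 5.33 and 21.7 CPM in explants. Lmo2 stood at 61.6 and 98.5 CPM fresh and 14.9 and 54.9 CPM in explants, lower in both explant libraries. Gfi1, which represses endothelial genes during the transition, stood at 6.13 CPM in fresh negative, 0 in fresh positive, 0.36 in explant negative and 0.54 in explant positive. Of 20 hematopoietic surface and signaling genes, Cxcr4 and Il7r were higher and Coro1a lower.

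Transcripts of mature blood lineages were present in the EC libraries. The summed macrophage lineage genes stood at 11800 and 1702 CPM in fresh EC and 5269 and 2064 CPM in explant EC. Of 19 such genes, 0 were higher and 1, Mrc1, lower in both fractions, and 4 differed by at least 2-fold in opposite directions. In the negative pair 11 were lower and 0 higher (18.9% and 17.7% over all genes). In the positive pair 6 were higher and 2 lower (14.5% and 9.37% over all genes). Of 18 macrophage activation and tissue remodeling genes, 8 were higher in both fractions (44.4%, against 4.39% of all genes) and 0 lower. The edgeR test called 0 of these 18, and their median log2 fold change was 1.58. Gpnmb, a glycoprotein of lipid-loaded and phagocytic macrophages (chr6:49036546-49070929, plus strand), stood at 3.94 and 1.70 CPM in fresh EC and 274 and 140 CPM in explant EC. The log2 fold change of Gpnmb was 6.22 (SE 0.94, adjusted p = 0.113). Trem2, a receptor of lipid-handling macrophages, and Apoe, a lipid carrier that they secrete, had log2 fold changes of -1.12 (SE 1.07) and -0.73 (SE 1.07). Spp1, osteopontin, stood at 59.9 and 18.7 CPM fresh and 399 and 288 CPM in explants, and Lgals3 at 14.5 and 1.13 CPM fresh and 124 and 55.3 CPM in explants. Both genes are also expressed outside macrophages, Spp1 in cartilage and bone. Gpnmb in HPSC stood at 5.23 and 2.39 CPM fresh and 485 and 401 CPM in explants, with a log2 fold change of 6.82 (SE 0.97), and in MC at 2.47 and 26.6 CPM fresh and 16.1 and 44.1 CPM in explants (1.51, SE 0.79). Pla2g7, an enzyme that clears platelet-activating factor and that macrophages secrete, stood at 67.0 and 20.1 CPM in fresh EC and 448 and 249 CPM in explant EC (log2 fold change 3.14, SE 0.61, adjusted p = 0.216).

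Granulocyte genes were split by fraction. Of 15, 4 were higher in both fractions and 0 lower, and 13 were at least 2-fold higher in the positive pair against 4 in the negative pair (14.5% and 17.7% over all genes). Ngp, a neutrophil granule protein, stood at 359 and 7.99 CPM in fresh EC and 646 and 139 CPM in explant EC. S100a8 stood at 705 and 8.8 CPM fresh and 358 and 96.3 CPM in explants. Of 14 platelet genes, 12 were at least 2-fold lower and 0 higher in the negative pair, where 18.9% of all genes were lower. In the positive pair 0 were lower and 3 higher (9.37% and 14.5% over all genes). Their summed level was 4375 and 1349 CPM in fresh EC and 1076 and 2498 CPM in explant EC. Pf4, platelet factor 4, stood at 2276 and 419 CPM in fresh EC and 444 and 1316 CPM in explant EC. Of 14 erythroid genes, 2 embryonic globins were lower in both fractions: Hba-x stood at 799 and 429 CPM fresh and 92.4 and 111 CPM in explants, and Hbb-bh1 at 486 and 224 CPM fresh and 59.5 and 28.0 CPM in explants. Multiply placed reads are listed separately in the deposited tables, so globin paralogs may be undercounted. The part of these lineages in other results was not tested.

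Growth and stress programs were examined last. Of 17 imprinted and growth factor genes, 4 were higher in both fractions and 0 lower (4.39% and 1.99% over all genes). Igfbp5, a binding protein for insulin-like growth factors, stood at 104 and 107 CPM in fresh EC and 635 and 316 CPM in explant EC (adjusted p = 0.75), and Cdkn1c, an inhibitor of the cell cycle, at 121 and 126 CPM fresh and 314 and 618 CPM in explants. Dlk1 and Igfbp3 were the others. Of 20 cell cycle genes, 0 were at least 2-fold apart in both fractions, and the median log2 fold change was -0.63. With each of 3 scalings 18 had a mean log2 ratio below 0, against 7692 to 7971 of all 16231 tested genes. In both explant libraries 11 were lower than in either fresh one, against 14% of all tested genes. The median of this list was -0.66 in HPSC and -0.33 in MC. Mki67 stood at 418 and 414 CPM in fresh EC and 333 and 128 CPM in explant EC. Btg2, an antiproliferative immediate early gene, stood at 170 and 247 CPM in fresh EC and 780 and 839 CPM in explant EC (log2 fold change 1.98, SE 0.39, adjusted p = 0.216), and Fos and Egr1 were also at least 2-fold higher in both fractions.

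Metabolic and stress lists were counted in the same way, beside 4.39% of all genes higher and 1.99% lower in both fractions. Oxidative phosphorylation genes gave 0 of 19 and glycolysis and hypoxia genes 2 of 21 higher in both fractions (Ankrd37 and Adm). Cholesterol synthesis genes gave 1 of 17, Lss. In the unfolded protein and amino acid response list, Slc7a11, the cystine transporter, stood at 1.42 and 0.57 CPM in fresh EC and 59.7 and 13.6 CPM in explant EC, and Trib3 was also higher in both. Of 18 interferon genes, 3 were higher (16.7%) and 1 lower in both fractions. In the positive pair 12 of them were at least 2-fold higher and 1 lower (14.5% and 9.37% over all genes). In the negative pair 3 were higher and 2 lower (17.7% and 18.9% over all genes). Of 20 inflammatory genes 1 was higher in both fractions.

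Genes lower in explant EC were fewer, and none passed the test. Rgs2, an inhibitor of G protein signaling, had the lowest p among them, at 216 and 265 CPM in fresh EC and 52.1 and 54.1 CPM in explant EC (log2 fold change -2.15, SE 0.63, adjusted p = 1). Actb, cytoplasmic actin, stood at 48320 and 18399 CPM fresh and 15575 and 10040 CPM in explants. Stard8, a protein with a lipid-binding START domain, stood at 159 and 73.6 CPM in fresh EC, 6.399 CPM in explant negative and 14.3 in explant positive, with a log2 fold change of -3.82 (SE 1.22, edgeR adjusted p = 1). Over the alternatives its adjusted p ran from 0.00209, in the fit of the 4 EC libraries alone, to 1, and its log2 fold change without the fresh negative library was -1.96. For each of these genes both explant libraries lay below both fresh ones. The naming rule required this, and it held for 14% of all tested genes. Arid3a and Klhl6, genes of B cells and other blood cells, and Sykb, the files' symbol for the Syk kinase of immune receptors, were also at least 2-fold lower in both fractions. Marcks, Nucks1, Mtpn, Nat10, Aspm, Rad54l, Rcl1 and Wdr26 were also among the 15 lower genes of lowest p. Their log2 fold changes lay between -2.83 (Rad54l, SE 1.04) and -1.11 (Marcks, SE 0.38). Rad54l stood at 119 and 123 CPM fresh and 1.60 and 63.0 CPM in explants, so its difference lay mostly in the negative pair. Actb, Marcks, Nucks1, Rad54l and Wdr26 did not reach 2-fold in both fractions.

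Whether these differences were particular to EC was tested directly, as the EC culture effect minus the mean of the HPSC and MC effects. No gene passed (0%, lowest adjusted p 0.857, 220 genes at an unadjusted p under 0.05), and DESeq2 called 20. Against HPSC alone and against MC alone, comparisons chosen after values were seen, no gene passed either (0% and 0%, lowest adjusted p 0.105 for Lrrc17 against HPSC, and 1 against MC). Nothing here is therefore shown to be particular to EC. The 6 genes of lowest p in the test against the mean were Gpc3, Lrrc17, Vcan, Islr, Fibin and Ncam1.

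Gpc3, a heparan sulfate proteoglycan that binds Hedgehog ligands, stood at 513 and 334 CPM in fresh EC and 1332 and 979 CPM in explant EC, while in HPSC it stood at 597 and 263 CPM fresh and 132 and 97.0 CPM in explants, and in MC at 2810 and 2646 CPM fresh and 1525 and 1882 CPM in explants. Its difference of log2 fold changes was 2.72 (SE 0.47, adjusted p = 0.857). EC and MC thus lay closer together after culture than before in these libraries. Lrrc17 stood at 23.1 and 40.4 CPM in fresh HPSC and 18.8 and 17.4 CPM in explant HPSC, and at 73.4 and 76.1 CPM in fresh MC and 371 and 533 CPM in explant MC. Its difference from the mean of both was 3.01 (SE 0.56). Vcan, versican, a proteoglycan of loose mesenchyme, stood at 111 and 59.1 CPM in fresh EC and 387 and 131 CPM in explant EC, against 526 and 545 CPM in fresh MC and 437 and 289 CPM in explant MC. Ncam1, a neural and mesenchymal adhesion molecule, stood at 239 and 213 CPM in fresh EC and 798 and 814 CPM in explant EC. Fibin, a secreted protein of embryonic mesoderm, stood at no more than 17.1 CPM in either fresh EC library and at 294 and 173 CPM in explant EC, and Islr, a marker of mesenchymal stromal cells, at 37.4 and 20.9 CPM fresh and 258 and 202 CPM in explants. In Ncam1, Fibin and Islr both explant EC libraries lay above both fresh ones, as in 16% of all tested genes. Ncam1 and Fibin were also named by a rule that required this.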

How the data were processed

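RNA was extracted with the mirVana kit and amplified with SMARTer chemistry before Illumina library preparation, per the labels' protocols. Each deposited table lists whole-number read counts per gene symbol, made by the authors with TopHat, Cufflinks, HTSeq and mm10 per the submitters' processing notes; the sources used here state neither tool versions nor annotation nor strandedness, so overlapping and antisense genes cannot be separated. Lines naming no gene were left out of library sizes: reads at no feature made up 36.7% to 49.4% in the 4 EC libraries compared.

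Groups came from the titles. Counts from all 18 libraries were fitted with edgeR 4.0.16 in R 4.3.3 (TMM scaling, quasi-likelihood F test, 1 mean per population and culture, a BRE-GFP term per population). The test covered 16231 of 21881 symbols, those reaching 0.796 CPM (10 counts at the median library) in 3 or more libraries. Standard errors come from the fold change and its F statistic. The code was tested on simulated counts drawn with less spread than these libraries have, which does not measure its power here. There are no repeat libraries, so the 2 reporter fractions serve as the libraries of a group. The members, the 39 lists and the 2 lists added later were chosen with earlier results of these data known. Genes were named by rule: those passing, the 15 of lowest p in each direction with non-overlapping groups and 20 CPM or more on average in either group, the 6 of lowest p in the test of the difference, and list members. Predicted, ribosomal protein and small RNA genes were skipped by that rule. Alternatives used DESeq2 1.42.0, limma 3.58.1 (voom), other scalings, filters, pseudocounts and sample sets, and leaving out each library. Gene coordinates are from GENCODE on GRCm38, the assembly that mm10 names.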

Additional observations from a re-analysis of the deposited data

Results flagged for a closer look

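Timd4, which encodes a receptor for phosphatidylserine on tissue macrophages, went in opposite directions in the reporter fractions, which is why it is listed. It stood at 33.1 CPM in fresh negative and 4.98 in explant negative, a log2 ratio of CPM + 2 of -2.33, and at 0.19 CPM in fresh positive and 14.7 in explant positive, a log2 ratio of 2.93. With 1 library per fraction and condition the difference between fractions was not tested. It was examined among the members of the gene lists, and 714 of all tested genes were at least 2-fold apart in opposite directions.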

How the results depend on the processing

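The number of genes passing in explant against fresh EC depended on the tool and on the libraries that set the spread. It was 1 in the edgeR test with 18 libraries, 119 with DESeq2 (106 higher, 13 lower), 5 with limma-voom, 31 with no filter on low counts, 4 with the 6 EC libraries only (Aspn, Gpnmb, Lect1 and Ogn), 144 with the 4 fresh and explant EC libraries only (131 higher, 13 lower, on 1 residual degree of freedom) and 0 with the share of reads at no feature as a covariate. Leaving out 1 library gave 0 to 4, with 0 without any 1 of the EC libraries or the fresh MC libraries. For the difference between EC and the mean of HPSC and MC, the count was 0 in the edgeR test, 20 with DESeq2 (12 higher, 8 lower) and 1 with no filter (Gpc3, adjusted p = 0.0478). Genes at least 2-fold higher in both fractions numbered 712, but 1106 with a pseudocount of 0.5, 436 with 5 and 174 at 4-fold. Those lower numbered 323, and 536, 194 and 20 under the same settings. Over these alternatives no fold change of a named gene changed sign. The cartilage count, under alternatives chosen after seeing the data, was 21 with a pseudocount of 5, RLE or library-total scaling, 19 at 4-fold, 23 in the negative pair alone and 22 in the positive pair alone. The labels give no replicate numbers. The edgeR fit was paired by BRE-GFP fraction through 1 term per population, and without that term 1 gene passed. A single count was worth 0.178 CPM in explant negative, the smallest EC library, and 0.0629 CPM in fresh positive, so low levels were least precise in explant negative, and the effect of depth on the calls was not tested.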

Other observations

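Markers of other cell types and programs that the comparisons above do not describe were examined in the same 4 EC libraries. The same 2-fold rule in both reporter fractions was used, by which 4.39% of all genes were higher and 1.99% lower. Germ cell genes, which mark the primordial germ cells that pass through this region, gave 1 of 13 higher and 0 lower. That gene, Dazl, an RNA-binding protein of germ cells, stood at 9.85 and 0 CPM in fresh EC and 125 and 3.90 CPM in explant EC, and Ddx4 stood at 10.1 and 1.57 CPM fresh and 62.2 and 2.29 CPM in explants. Both were highest in explant negative, while the pluripotency gene Dppa5a stood at 44.1 CPM in fresh negative and 4.98 in explant negative. Sympathetic neural crest genes gave 3 of 15 higher and 1 lower. Th, the rate-limiting enzyme of catecholamine synthesis, and Dbh were not among them. Th stood at 0 and 4.21 CPM in fresh EC and 0 and 31.3 CPM in explant EC. Dbh stood at 1.53 and 2.64 CPM fresh and 0 and 25.3 CPM in explants. Both were highest in explant positive and rested on that 1 library. Urogenital and coelomic epithelium genes gave 0 of 14 higher and 1 lower, with a median log2 fold change of -0.66. In 4 members both explant libraries lay below both fresh ones, and in 1 above (14% and 16% over all genes). The latter was Wt1, the factor of that epithelium, at 28.9 and 18.2 CPM fresh and 59.4 and 64.0 CPM in explants. Mast cell and eosinophil genes gave 0 of 12 in either direction and lymphoid genes 1 of 9 higher, Il7r.

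Cytoskeletal and YAP response genes gave 4 of 20 higher and 0 lower in both fractions. S100a6, a calcium-binding protein of spreading cells, stood at 22.6 and 12.5 CPM in fresh EC and 68.3 and 171 CPM in explant EC, whereas Tln1, which couples integrins to actin, stood at 615 and 396 CPM fresh and 289 and 221 CPM in explants. NRF2 and oxidative stress genes gave 3 of 15 higher and 1 lower, the ferritin chain gene Fth1, at 3039 and 846 CPM fresh and 1300 and 102 CPM in explants. Of 16 p53 target genes 1 was higher, Cdkn1a, at 24.5 and 21.0 CPM fresh and 59.4 and 70.3 CPM in explants. Of 5 sex-linked genes 0 were at least 2-fold apart in both fractions, with both Xist and Y-linked transcripts in every library. None of these genes passed the edgeR threshold.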
